A study of Drosophila melanogaster with 52 samples.

Results

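The wild-type transcriptome of Drosophila melanogaster imaginal discs and brains was described from 3 RNA-Seq libraries, WT 1, WT 2 and WT 3, chosen by their genotype label out of 10 RNA libraries and 52 samples in the series. All 16502 genes of the deposited table were kept, and no comparison between genotypes was made. The series studies Spps and Pho, DNA-binding proteins that bring Polycomb group complexes to chromatin, and its other RNA libraries are 4 from Spps mutants, without maternal or zygotic product, and 3 from pho mutants, without zygotic product. They are used here only for the spread within each group. The tissue is imaginal discs with brains, from larvae of the third instar and from stocks kept at 25 °C, and the labels give the wild type no strain name, sex or number of larvae. Discs and brains went into the same RNA, so values are those of a mixture, and no label says that the 3 libraries came from separate crosses or dissections. The spread between them may therefore be partly technical.

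Imaginal discs are larval epithelial sacs that grow by cell division and later form the adult wings, legs, eyes and other body parts. The larval brain holds neuroblasts, the stem cells of the nervous system, together with functioning larval neurons, glia and immature adult neurons. Polycomb group complexes keep Hox genes and other developmental regulators silent outside the regions where they act. FPKM, fragments per length of transcript and depth of library, is a level per length, so values of different genes can be set roughly side by side. Levels of very short transcripts are the least certain, since FPKM divides by length. In RNA from mixed tissue, fewer cells of a type and less RNA per cell cannot be told apart.

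Genes listed for the labelled tissues were mostly present, and so were many listed for others. Of 37 listed transcription factors of disc patterning 36 were found in the table, and all 36 had a mean of 1 FPKM or more. So did 26 of 27 neuronal genes found and all 19 glial genes, against 57.9% of all genes. The retina list, of the eye disc, passed less fully, with 15 of 22. Some lists of tissues that the labels do not name passed in full. These were 20 of 20 blood cell genes, 15 of 15 ring gland genes and 11 of 11 tracheal genes. Of the salivary gland genes 13 of 15 passed. The blood cell list is not specific, since ush is also on the disc patterning list and lz on the retina list. Others passed less, with 21 of 25 muscle genes, 23 of 31 gut and Malpighian tubule genes, 12 of 18 fat body genes and 10 of 28 germline and gonad genes. The libraries stood apart in other tissues' genes: genes for digestive enzymes of the gut were lowest in WT 3, and most genes of the salivary glue and the fat body were highest in WT 2. WT 3 was also the shallowest, at 60.1% of the depth of WT 1 by the step size of its lowest values, while WT 2 was at 99.2%. The most frequent ratio held 81 of 1523 genes in WT 3 and 223 of 1820 in WT 2, so the figure for WT 3 rests on fewer genes. The libraries otherwise tracked each other closely over the 9552 genes at a mean of 1 FPKM or more. On the log2(FPKM + 1) scale Pearson's r across genes was 0.972 between WT 1 and WT 2, 0.969 between WT 1 and WT 3 and 0.956 between WT 2 and WT 3, and genes are not independent replicates.

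Levels fell into a broad low range and a narrow high one. Of the 16502 genes, 2330 were listed at 0 in all 3 libraries, 4620 lay above 0 but under a mean of 1 FPKM, 2800 between 1 and 10, 5759 between 10 and 100, 873 between 100 and 1000, and 120 at 1000 or more. The most populated class, 10 to 100 FPKM, held 34.9% of genes and 25.7% of the summed FPKM, and the 120 highest genes held 46.7% of the sum. The 10 highest genes alone held 8.78%, the 100 highest 43.4% and the 1000 highest 72.5%. In each library between 9422 and 9503 genes reached 1 FPKM. All 3 libraries had 9139 genes at that level, and 701 more reached it in only 1 or 2 of them.

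**Figure D1:**
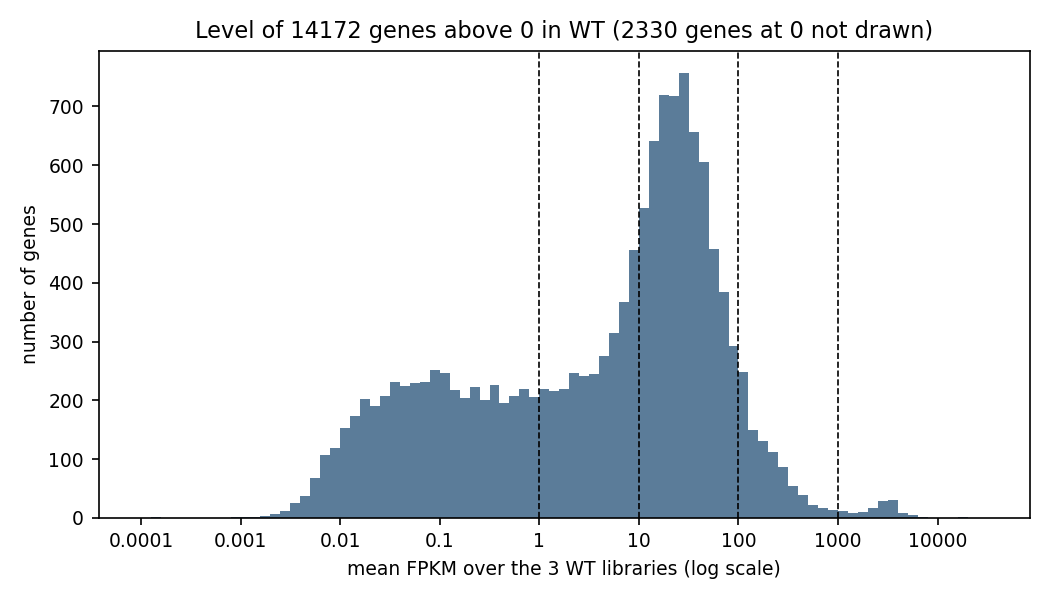
Number of genes by mean FPKM over WT 1, WT 2 and WT 3, on a log axis, for the 14172 genes above 0; dashed lines mark 1, 10, 100 and 1000 FPKM. The tallest bars lie between 10 and 100 FPKM, the class of 5759 genes, and a small separate rise above 1000 FPKM is the class of 120 genes, 79 of which encode ribosomal proteins.

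The ribosome dominated the highest levels. Of the 25 highest genes 20 encode cytosolic ribosomal proteins, and of the 120 genes at 1000 FPKM or more 79 do. The 88 genes of that family held 35.8% of the summed FPKM, with a median of 2960.0 FPKM. No gene of the mitochondrial genome was found in the table by its symbol. Ranks and shares of the summed FPKM, here and above, may therefore not cover such genes. The highest gene was RpL41, a very short protein of the large subunit, at 19494, 18856 and 16669.8 FPKM in WT 1, WT 2 and WT 3, the order used for 3 values from here on. RpL39, another small protein of that subunit, followed at 7892, 7781 and 7443. The part of short length in the levels of RpL41 and RpL39 was not tested. The stalk proteins RpLP1 and RpLP2, which recruit elongation factors, stood at 5172 ± 129 and 4699.5 ± 178 FPKM (mean ± SD, n = 3), and RpS27A, made as a fusion with ubiquitin, at 4848 ± 139. RpS25 and RpS29, proteins of the small subunit, stood at 5026 ± 174 and 4779 ± 44.5, and their libraries did not overlap with those of RpL39.

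Outside the ribosomal proteins, 41 genes reached 1000 FPKM. Ef1alpha48D, the elongation factor that delivers tRNA to the ribosome, stood at 5399.8, 5965 and 6359.8 FPKM. Obp44a, a member of the odorant-binding protein family, ranked 4 among all genes at 5347, 4757 and 5412. The next of its 49-member family was Obp99b at 1063, and 26 of them were under 0.1 FPKM. Act5C, a cytoplasmic actin, stood at 4125, 4687 and 3769, alphaTub84B, the main alpha-tubulin, at 3654, 4044 and 3308, and Hsp23, a small heat shock protein, at 3269, 4536 and 4085. Hsp23 was lowest in WT 1 and had the widest range of the 25 highest genes, a log2 range of 0.47.

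Translation factors and the cytoskeleton were also high. Of the 120 genes at 1000 FPKM or more 11 were on the list of 20 translation genes and 7 on that of 20 cytoskeletal genes; RpLP0, RpLP1, RpLP2 and sta of the translation list are ribosomal proteins counted above. All 20 translation genes were at 100 FPKM or more, with a median of 1438 FPKM. eIF-5A, a translation factor carrying hypusine, was at 2174 ± 125 FPKM, EF2, the translocation factor, at 1882 ± 68.6, the helicase eIF-4a at 1853 ± 11.8, and the lowest of the list, eIF6, a factor of large subunit maturation, at 109 ± 11.7. Of 20 cytoskeletal genes 16 were at 100 FPKM or more. Among them were betaTub56D, the main beta-tubulin, at 3518 ± 371, the cofilin tsr at 1735 ± 40.1, the profilin chic at 1319 ± 76.3 and the beta-catenin arm at 444 ± 26.9.

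Chromatin and energy genes followed. Of 20 listed genes for bulk chromatin 16 were at 100 FPKM or more, with a median of 465 FPKM. Df31, a histone-binding protein, stood at 2089.8 ± 69.7, HmgD, an HMG-box chromatin protein, at 1884 ± 58.96, the replacement histone genes His3.3B and His2Av at 1072 ± 11.8 and 779 ± 33.3, and the histone chaperone Nap1 at 505 ± 22.01. All 20 genes of the ATP synthase and respiratory chain list passed 10 FPKM, from 67.7 ± 4.37 for ND23, a complex I subunit, to 818 ± 46.4 for sesB, the ADP/ATP carrier. The 72 mitochondrial ribosomal protein genes lay in a narrow band from 21.2 ± 0.8996 (mRpL54) to 105 ± 3.71 FPKM (mRpL30), with a median of 42.7 against the 2960.0 of their cytosolic counterparts. Glycolysis spread more widely, from Gapdh2, a glyceraldehyde phosphate dehydrogenase, at 524 ± 17.3 down to ImpL3, lactate dehydrogenase, at 20.04 ± 3.68 and the hexokinase Hex-C at 1.06.

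Many of these machines have a second gene copy, and in most of the pairs picked here the copy was low. In 38 pairs of a main gene and a related copy, picked with their levels known, the copy was under 1 FPKM in 29 and under 0.1 FPKM in 19. Of all 16502 genes, 4805 were under 0.1 FPKM. The main gene was the higher one in every pair, so these counts follow in part from the choice of pairs. RpS5a stood at 3355 FPKM and RpS5b at 8.798, 5.31 and 7.89, a 457-fold difference in the means. RpL22 stood at 1158 and RpL22-like at 0.573. Proteasome core subunits such as Prosalpha3 (262 FPKM) and Prosbeta5 (256) contrasted with their copies Prosalpha3T at 0.0173 and Prosbeta5R2 at 0.00548. For the vacuolar proton pump, Vha16-1 was at 284 and Vha16-3 at 0.0515. In tubulin genes, betaTub85D, the testis form, was at 0.9799 and alphaTub67C, the maternal form, at 0.241. Exceptions were RpL24-like, which acts in ribosome assembly, at 263 ± 17.7, Ef1alpha100E at 298 ± 11.4, RpS15Ab at 177 ± 5.73 and His3.3A, which encodes the same histone as His3.3B, at 465 ± 12.9. Copies of near-identical sequence can share fragments, so their split is uncertain.

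**Figure D2:**
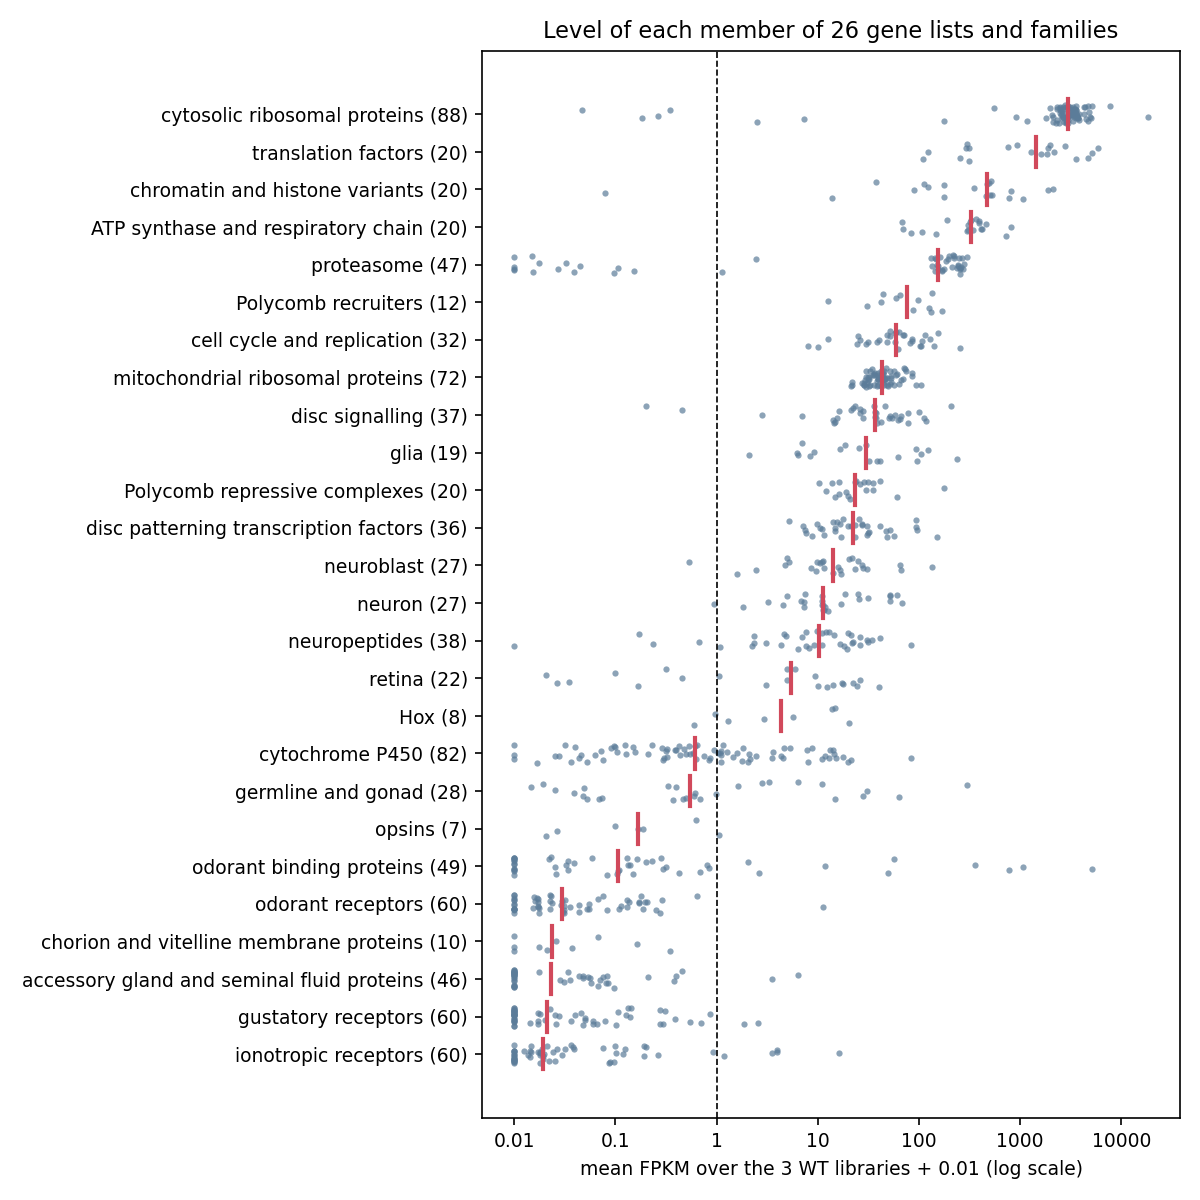
Mean FPKM over the 3 WT libraries, plus 0.01, on a log axis for every member of 26 gene lists and families; each point is a gene, red bars are medians, numbers in brackets are members and the dashed line marks 1. Cytosolic ribosomal proteins (median 2960.0 FPKM) lie at the top with a few low copies to the left, Polycomb and disc genes lie mostly between 10 and 100, and chemosensory and reproductive families lie near 0.

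Genes of the Polycomb system lay in the middle range and hardly varied. All 20 genes of the Polycomb repressive complexes were at 10 FPKM or more, with a median of 23.5. Caf1, a histone-binding subunit shared with other chromatin complexes, was the highest at 179, 172 and 176 FPKM. The catalytic subunits were lower: E(z), the H3K27 methyltransferase, at 23.9, 22.5 and 23.5, and Sce, the H2A ubiquitin ligase, at 42.7, 41.9 and 37.9. Pc, the chromodomain protein that binds the methylated histone, stood at 14.6, 14.5 and 15.3, and its partner ph-p at 34.2, 36.01 and 34.3, with the near-identical copy ph-d at 18.9 ± 0.542, so that their split is uncertain. The lowest members were esc, a subunit of the methyltransferase complex, at 13.7, 10.7 and 11.7, and Su(z)2, a relative of Psc, at 10.7, 10.1 and 9.89. Of these 20 genes 12 had a log2 range under 0.1 between libraries, where 31.3% of the 7894 genes at a mean of 5 FPKM or more did.

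The DNA-binding recruiters of Polycomb complexes were higher, with a median of 76.7 FPKM over 12 genes. The BTB protein lolal was at 161, 165 and 179, the GAGA factor Trl at 134, 137 and 134, and the zinc finger proteins crol and cg at 128, 131 and 132 and 88.9, 87.4 and 87.8. The gene pho was at 53.7, 57.2 and 67.8, its partner Sfmbt at 41.3, 40.8 and 43.00 and its paralog phol at 31.5, 30.1 and 30.4. Spps, a member of the Sp1/KLF family, was the lowest of the 12 at 12.4, 12.9 and 12.2, below every other recruiter in every library. The order from lolal down to Spps held between most neighbours, but crol overlapped across libraries with the HMG-box protein Dsp1, at 126 ± 5.41, and pho with grh, at 65.3 ± 4.07. Of the 12 recruiters 8 had a log2 range under 0.1.

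The Hox genes, the best known Polycomb targets, were moderate to low. Scr, which specifies the first thoracic segment and labium, was the highest at 18.2, 23.7 and 19.1 FPKM. Antp, the gene of the second thoracic segment, was at 14.9, 14.8 and 14.7 and Ubx, of the third thoracic segment and haltere, at 13.9, 15.9 and 12.1. Antp and Ubx overlapped, and Scr was above both in every library. The abdominal genes were lower, abd-A at 6.501, 5.62 and 4.87 and Abd-B at 1.62, 1.01 and 1.25, and the head genes Dfd, lab and pb were at 2.74, 3.26 and 2.76, 1.06, 1.000 and 0.8200 and 0.666, 0.563 and 0.547. Noncoding RNAs of the Hox complexes were lower than Scr, Antp and Ubx, with bxd at a mean of 0.218 and iab-8 at 0.532 FPKM.

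Regulators of disc patterning were all present at a moderate level. The 36 transcription factors ranged from 5.17 ± 0.113 FPKM (bab1) to 149 ± 14.6 (exd), with a median of 22.2, and 30 were at 10 FPKM or more. The Hox cofactors exd and hth were among the highest, hth at 91.96, 96.3 and 95.3, together with sd, the DNA-binding partner of Vg and Yki, at 94.8, 99.9 and 94.8 and ci, the Hedgehog effector, at 85.97, 93.4 and 102. Several factors known for a region of a disc were lower: Dll of the distal leg at 51.2 ± 3.34, ap of the dorsal wing at 47.1 ± 2.74, en of posterior compartments at 31.8 ± 2.13, vg of the wing at 16.9 ± 1.31 and pnr of the dorsal notum at 10.6 ± 1.74. Products of the Enhancer of split and Bearded complexes, direct targets of Notch signalling or of proneural factors, were higher, with a median of 69.4 over 15 genes and 256 ± 15.2 for E(spl)malpha-BFM.

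Signalling genes showed receptors at or above their ligands in several pathways. Of 37 listed genes 35 had a mean of 1 FPKM or more. In the Dpp pathway the ligand dpp was at 16.5, 16.01 and 15.6, the ligand gbb at 119, 122 and 97.9 and the receptor tkv at 119, 125 and 111. The Wingless ligand wg was at 26.2, 28.7 and 23.9 and its receptor fz2 at 101, 108 and 93.2, and hh, the Hedgehog ligand, at 27.9, 28.1 and 27.1 with its receptor ptc at 36.8, 36.3 and 35.7. In the EGF pathway the order was the reverse for spi, a ligand, at 225, 211 and 179.7 against Egfr at 64.01, 66.3 and 63.9, while the ligand vn was at 7.45, 6.91 and 6.43. The JAK/STAT ligands were the lowest of the list: os, which encodes Unpaired, at a mean of 2.77, upd3 at 0.451 and upd2 at 0.189, beside their receptor dome at 42.02 ± 2.19.

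Cell division genes were all measurable. All 32 listed genes were above 5 FPKM, with a median of 58.6. PCNA, the replication clamp, stood at 265, 246 and 252, geminin, an inhibitor of replication licensing, at 159, 149.9 and 149.5, and the mitotic kinase polo at 139, 137 and 147. The mitotic cyclins CycB and CycA were at 107 ± 1.27 and 105 ± 3.63, and CycE, which drives entry into replication, at 25.03 ± 0.9699. The helicase genes Mcm2, Mcm3, Mcm5, Mcm6 and Mcm7 lay between 48.5 and 69.4. The lowest were the origin recognition gene Orc1 at 10.1 ± 0.734 and cid, the centromeric histone, at 8.03 ± 0.561.

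Genes listed for the brain's stem cells, neurons and glia were mostly at 1 FPKM or more. Of 27 neuroblast genes 26 had a mean of 1 FPKM or more, led by brat, a growth regulator segregated at division, at 139, 141 and 127 and pros, a differentiation factor, at 67.6, 62.2 and 68.2. The neuroblast factors wor, ase and dpn were lower at 10.5 ± 0.548, 9.51 ± 1.03 and 4.72 ± 0.278. The early temporal factors Kr and hb stood at 1.59 and 0.521, below the later factor cas at 16.4 ± 2.67. Among neuronal genes the RNA-binding protein elav was at 58.96, 59.8 and 64.04 and the synaptic vesicle protein nSyb at 51.9, 45.2 and 57.9. The glutamate transporter VGlut, found in motor neurons, was at 18.4 ± 1.72, and the acetylcholine transporter VAChT at 7.28 ± 0.743. Serotonin and octopamine synthesis genes were the lowest, with Trh at 1.81 and Tdc2 at 0.9398. Of the glial genes the innexin ogre was at 222, 258 and 234, the septate junction protein Cont at 120.1, 120.3 and 126 and the glial transcription factor repo at 17.1, 16.3 and 16.1. Epithelia also use septate junction genes, so this list is not specific to glia. The neuroblast list is not specific either, since nub is also on the disc patterning list and grh is among the Polycomb recruiters.

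Neuropeptide genes, each made by few cells, were often measurable: 34 of 38 had a mean of 1 FPKM or more. Akh, the adipokinetic hormone of the ring gland, was at 44.98, 42.6 and 36.5, and the insulin-like gene Ilp2 of the brain at 24.7, 25.3 and 44.3. Ilp8, a hormone released by damaged discs, stood at 0.479, 0.0966 and 0.107, and Nplp3 was listed at 0. Steroid synthesis genes of the ring gland, an endocrine organ attached to the brain, were present in all libraries, with phm at 98.8, 107 and 112, sad at 93.3, 102 and 84.5 and spok at 63.1, 69.8 and 76.5.

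Early genes of the eye disc were measurable and late ones mostly near 0. Of 22 retinal genes 15 had a mean of 1 FPKM or more. The determination genes toy, eya and so were at 35.6, 37.7 and 46.4, 26.5, 26.6 and 25.8 and 17.4, 18.5 and 17.6, and the proneural gene ato at 17.2, 17.1 and 17.8. The receptor kinase gene sev, of the R7 photoreceptor, was at 9.12, 9.13 and 10.1 and its ligand boss at 0.459, 0.566 and 0.315. Genes of the working photoreceptor were near 0: ninaE, the main rhodopsin, at 0.0106, Rh3 at 0.0163 and the light-gated channel trp at 0.0246. Rh5, a rhodopsin also used by the larval eye, was the highest opsin at 1.01, 1.07 and 1.08. An exception was norpA, the phospholipase of phototransduction, which also acts elsewhere, at 22.8, 22.1 and 29.1.

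Chemosensory and reproductive families were mostly under 1 FPKM. Of 60 odorant receptor genes 1 had a mean of 1 FPKM or more, Or43b at 11.95, 10.5 and 11.6. Of 60 gustatory receptor genes 2 did, Gr39a at 2.36, 2.82 and 2.52 and Gr61a at 1.93, 1.94 and 1.71, and of 60 ionotropic receptor genes 5 did, led by Ir76a at 15.4, 13.6 and 19.6. The median of each of these 3 families was under 0.1 FPKM. None of 10 chorion and vitelline membrane genes reached 1 FPKM, the highest being Vm34Ca at 0.337, and 2 of 46 accessory gland and seminal fluid genes did, Acp95EF at 4.91, 5.82 and 8.31 and Acp32CD at 2.98, 4.83 and 2.86. Germline genes were mostly low: vas, an RNA helicase of germ cells, stood at 0.608, piwi at 0.359, osk at 0.03896 and nos at 0.0294, while stai, a microtubule regulator also used in neurons, stood at 261, 292 and 341.

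Some other genes known from adult tissue, chosen with their values known, were also low. The yolk protein genes Yp1, Yp2 and Yp3 of adult females were at 0.0517, 0.271 and 0.354 FPKM. The flight muscle actin Act88F was at 0.0263, against 122 ± 3.77 for Act57B, an actin of larval muscle. Myoblasts of the adult muscles lie on the discs, and their factor twi was at 9.58, 10.4 and 8.26 and Mef2 at 16.1, 16.5 and 16.2. The RNA roX1, which acts in male dosage compensation, was at 154, 123 and 203 and roX2 at 29.1, 19.5 and 52.3, both highest in WT 3 and lowest in WT 2. All 53 genes of the table that lie on the Y chromosome, many of them repeats or genes of spermatogenesis, were under 0.1 FPKM, and 51 were listed at 0.

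Detoxification families were mixed. Of 82 cytochrome P450 genes 35 had a mean of 1 FPKM or more, the highest being Cyp4p2 at 83.8, 75.9 and 92.6, whose split from the related copy Cyp4p1 is uncertain. Of 35 glutathione S-transferase genes 25 did, with GstD1 at 1201, 1307 and 1195 and GstS1 at 375, 417 and 323. Of 17 UDP-glucuronosyltransferase genes 4 did. Of 95 RR-type cuticle protein genes 34 did, and 6 of them exceeded 100 FPKM, with Lcp4 the highest at 535, 1848 and 256. Of 26 Tweedle cuticle genes 3 did, led by TwdlE at 12.6, 16.1 and 11.5.

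A listed 0 was not proof of silence. Prosalpha1, an essential subunit of the proteasome core, was listed at 0 in all 3 libraries, as was its copy CG30382, while the core subunits Prosbeta5 and Prosalpha2 stood at 256 and 296 FPKM. Of 93 replication-dependent histone genes 91 were listed at 0 and the highest was at 0.0495 FPKM, in tissue whose division genes were all present. Histone genes are repeated and their mRNA lacks a poly(A) tail, and the libraries were made from poly(A) RNA; the part of either in these zeros was not tested. Among the 2153 genes at 0 in only 1 or 2 libraries, the median of the highest library was 0.0651 FPKM. WT 3 had 3881 genes at 0, WT 1 had 3392 and WT 2 had 3070.

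Some runs of neighbouring genes were all under 0.1 FPKM. In the gene order of the Release 6 annotation, used for order only, the longest run of neighbours under 0.1 FPKM was the histone cluster on 2L with 108 genes, of which 106 were listed at 0, followed by the 53 genes of Y. A run of 29 genes on 3R reached at most 0.0348 FPKM, of which 19 were at 0, and a run of 20 on 3L held the seminal fluid gene Sfp70A4. A run of 18 on 2L held Ser12 and Send1, a protease gene of the spermathecae. Runs of high genes were short. The longest at 100 FPKM or more were 4 genes, Lcp1 to Lcp4 of the larval cuticle and the set CG5554, ytr, eIF6 and gbb, both on 2R. Hsp23 and Hsp27 lay with CR43481 in a run of 3 on 3L.

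Most genes differed little between the 3 libraries. The range of a gene is the log2 ratio of its highest to its lowest library after adding 1 FPKM, and it was asked of the 7894 genes at a mean of 5 FPKM or more. The median range was 0.15 and the 90th percentile 0.42. A range of 1 or more, a difference of at least 2-fold, was called variable and held for 313 genes, 3.97%. A gene near 0 in 1 library can pass the mean of 5 FPKM only through the others, and is then variable by construction. A range under 0.1 was called stable and held for 2473 genes, 31.3%. Without WT 2 the variable genes numbered 162 and the stable ones 4243, and without WT 3 they numbered 182 and 5010. The highest stable genes were the ribosomal protein genes RpL39, RpLP1, RpS25, RpS27A and RpS29, with ranges from 0.03 (RpS29) to 0.09 (RpS25). Variable genes were 9.81% of genes between 5 and 10 FPKM, 2.71% between 10 and 100, 4.93% between 100 and 1000, and 2 of 120 at 1000 or more. Those 2 were the glue gene Sgs7 and Obp99b, an odorant-binding protein gene at 729, 1957 and 504 FPKM.

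**Figure D3:**
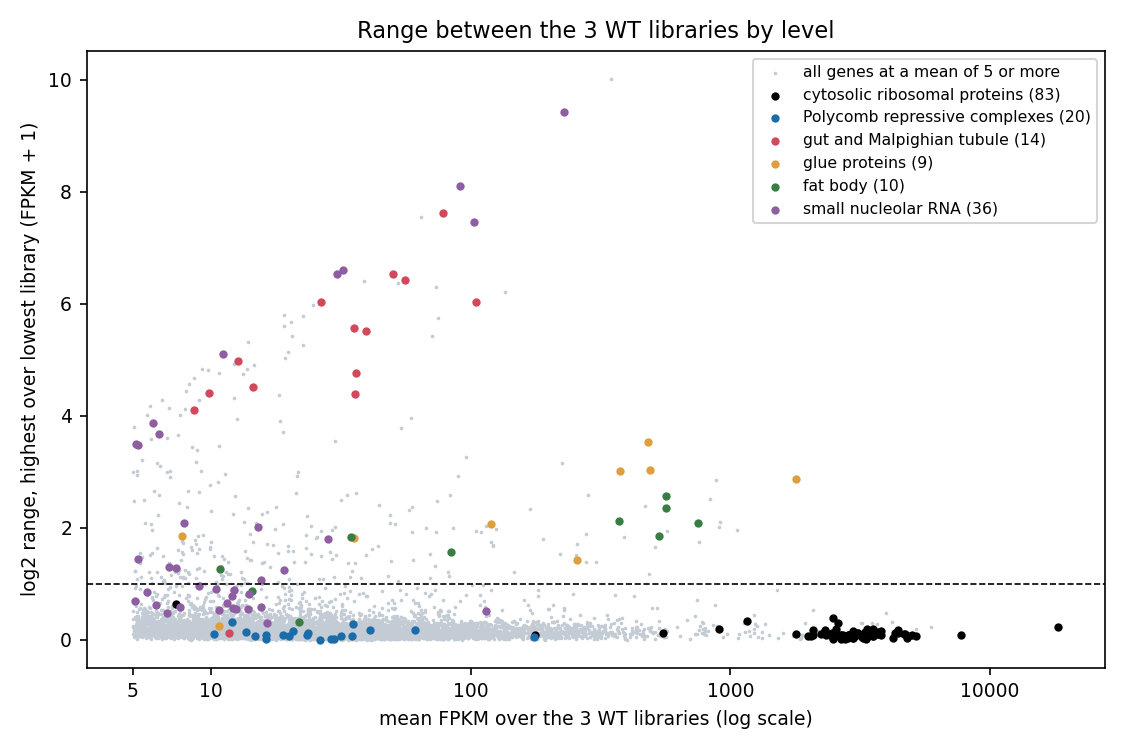
Log2 range between the 3 WT libraries (FPKM + 1) against mean FPKM on a log axis, each point a gene at a mean of 5 FPKM or more; coloured points are named lists and the dashed line is the range of 1. Ribosomal protein and Polycomb genes lie under the line, while 13 of 14 gut genes, 8 of 9 glue genes, 8 of 10 fat body genes and 18 of 36 small nucleolar RNA genes lie above it.

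The variable genes were unevenly spread over gene groups. Of 54 lists and families with a gene at 5 FPKM or more, 33 had no variable gene. Most of these are small lists, such as Polycomb complexes (0 of 20), recruiters (0 of 12), disc transcription factors (0 of 36) and glia (0 of 18), where a count of 0 is close to the 3.97% of all genes. The larger families with none were the cytosolic (0 of 83) and mitochondrial (0 of 72) ribosomal proteins. The lists and families for gut, salivary gland, fat body and cuticle together held 49 variable genes of 62, which is 15.7% of the 313. Genes known only by a CG or CR number made up 54.3% of the 313 and 43.2% of the 7894. WT 2 was the highest library in 179 of the 313 and WT 3 the lowest in 177. The order WT 2 over WT 1 over WT 3 held for 147 of the variable genes, 47.0%, and for 23.2% of the 7894. The other order with WT 2 highest, WT 2 over WT 3 over WT 1, held for 10.2% of the variable genes and 10.7% of the 7894. The other with WT 3 lowest, WT 1 over WT 2 over WT 3, held for 11.2% and 15.3%.

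Digestive genes were the most variable group and were lowest in WT 3. Of 14 gut and Malpighian tubule genes 13 were variable, and 10 of the 14 were variable between WT 1 and WT 2 alone. The list's summed level was 966 FPKM in WT 1, 633 in WT 2 and 37.5 in WT 3. Of the 16 Jonah genes, which encode serine proteases of the gut, 14 were asked and all 14 were variable. Several of them, such as Jon65Aiv and Jon25Biii, are also on the gut list, so the counts overlap. Their summed level was 556, 848 and 12.6 FPKM, so most passed the filter only through WT 1 and WT 2. The count of variable genes here follows in large part from that filter. Jon65Aiv stood at 172, 142 and 1.63 FPKM, Jon25Biii at 61.4, 45.8 and 1.31 and Jon66Ci at 30.4, 189 and 1.395. These were all lowest in WT 3, but WT 1 and WT 2 changed places. The lysozyme genes LysB and LysD, at 220.0, 15.4 and 0.118 and 135, 15.4 and 0.479, and the trypsin gene epsilonTry, at 76.01, 3.29 and 0.169, were highest in WT 1. Peritrophin-15a and Peritrophin-15b, members of a chitin-binding family of the gut lining, were highest in WT 2 at 10.5, 146 and 0.773 and 7.74, 186 and 0. Markers of the hindgut (byn) and of the Malpighian tubule (Uro) were near 0 in all libraries, at means of 0.0194 and 0.0114. Whether gut tissue went into the RNA was not tested.

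Salivary gland genes followed another order and were lowest in WT 1. Of 13 genes asked 10 were variable, against 6 without WT 1, and the summed level was 1137, 6934 and 3655 FPKM. The glue proteins, which fix the pupa to its substrate, were highest in WT 2: Sgs7 at 464, 3412 and 1507, Sgs5 at 122, 1013 and 332, Sgs8 at 81.7, 952 and 415 and Sgs3 at 88.97, 726 and 316. The genes ng1 and ng3, also of the gland, were highest in WT 3 instead, ng3 at 159.9, 179.6 and 431 and ng1 at 3.54, 4.08 and 15.5. The gland factors fkh and CrebA differed less, at 7.42, 9.07 and 10.2 and 28.1, 35.9 and 26.9, while sage, another factor of the gland, was variable at 8.03, 21.04 and 25.3.

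Fat body and larval cuticle genes were, as groups, highest in WT 2. Of 10 fat body genes asked 8 were variable, against 1 without WT 2, with a summed level of 2007, 5552 and 1321 FPKM. The larval serum protein genes, which encode amino acid stores, included Lsp2 at 568, 1369.8 and 320.4, Lsp1gamma at 412, 927 and 256 and Lsp1alpha at 50.2, 151 and 51.1. Fbp1, the receptor that takes serum proteins back into the fat body, was at 206, 1229 and 267. Rfabg, which encodes the lipid carrier apolipophorin, was steadier at 19.5, 24.6 and 21.2. Of 19 RR-type cuticle genes asked 12 were variable, against 7 without WT 2 and 6 without WT 3. Lcp4 was given above, Lcp1 stood at 589, 1637 and 284, Lcp3 at 81.7, 536 and 59.4 and Lcp9 at 54.2, 102 and 6.45, each with WT 2 highest and WT 3 lowest. Cpr51A, a cuticle protein gene, had no such order at 44.9, 41.5 and 62.2.

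Ecdysone response genes differed in part. Ecdysone is the steroid that starts metamorphosis, and 3 of 19 genes asked were variable, against 2 without WT 2 and 1 without WT 3. Hr46, which encodes the nuclear receptor DHR3, was at 7.31, 17.6 and 1.98, Hr4, another receptor of the cascade, at 17.5, 26.7 and 7.63, and ImpE3 at 74.6, 119.5 and 53.7, all with WT 2 highest and WT 3 lowest. ImpE2, a disc gene induced by the hormone, had the same order at 1401, 2026 and 1089 with a range under 1. The receptor genes EcR and usp were at 39.4, 37.4 and 41.4 and 35.7, 37.5 and 32.1, and the early genes br and Eip74EF at 326, 389 and 301 and 36.6, 35.5 and 36.1. The median difference of the list from the mean of the libraries was 0.25 log2 units in WT 2, -0.04 in WT 1 and -0.19 in WT 3. Staging of the larvae is given only as the third instar, and its part in these differences was not tested.

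**Figure D4:**
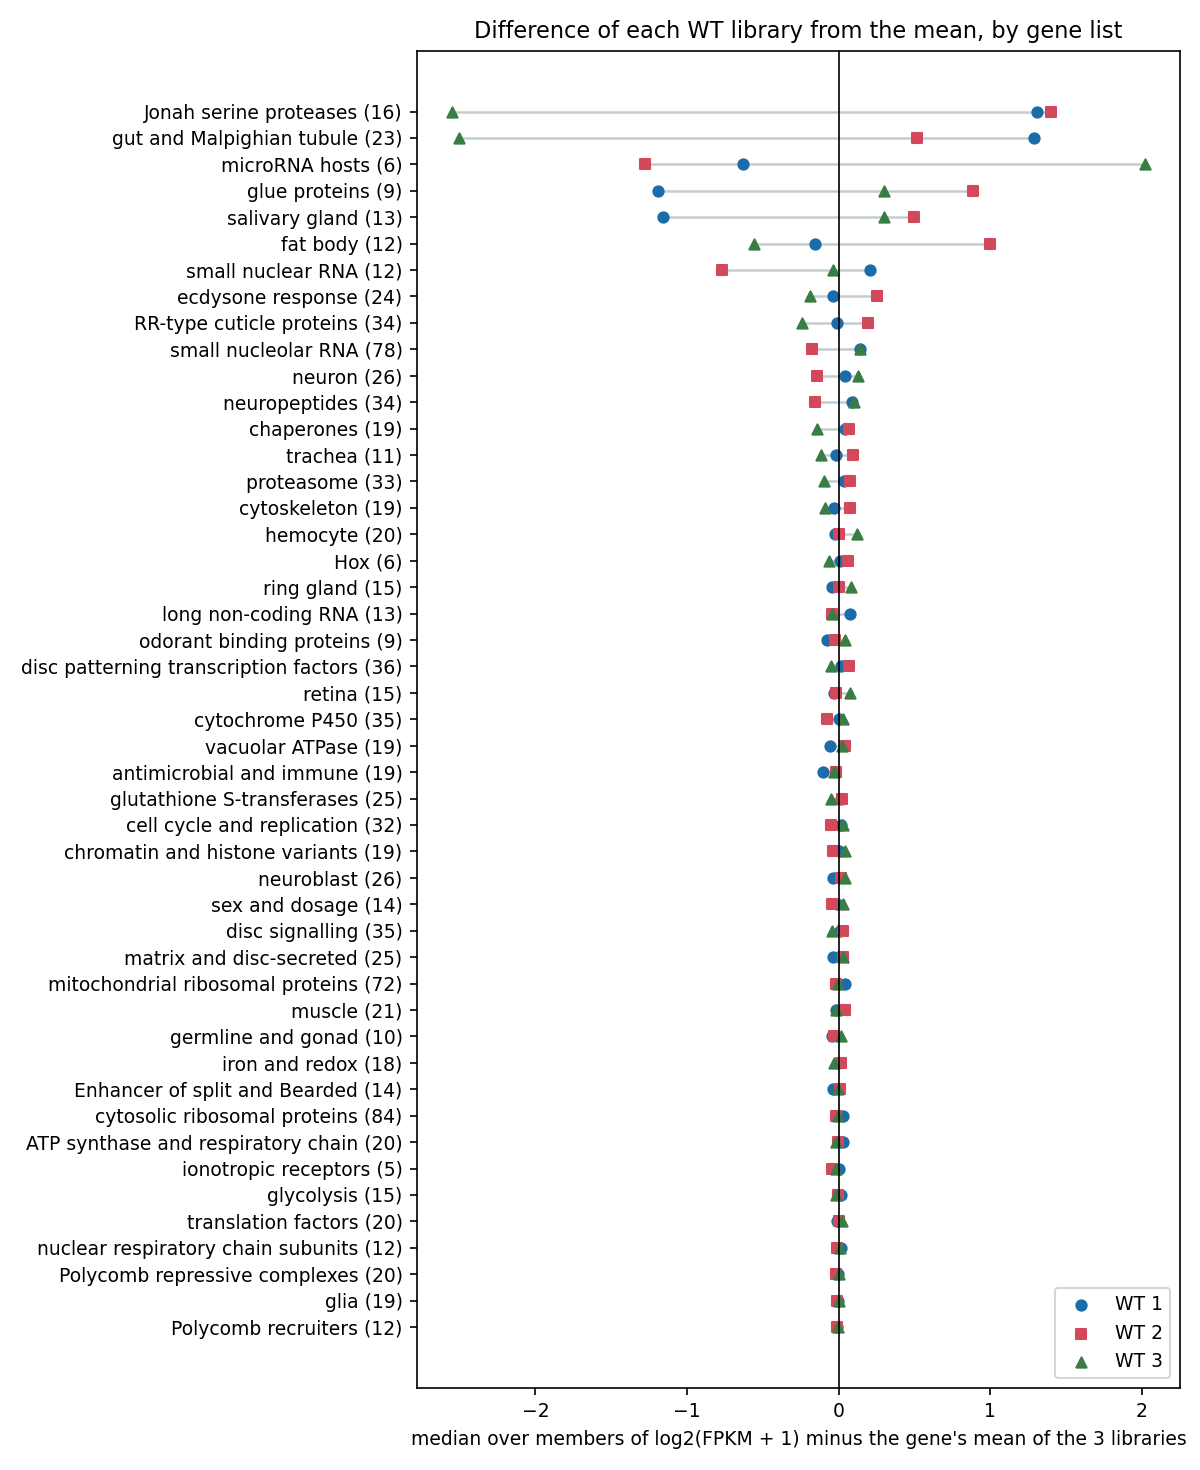
Median over members of log2(FPKM + 1) minus the gene's mean of the 3 libraries, for each WT library and each list or family with 5 or more genes at a mean of 1 FPKM or more (their number in brackets), genes known only by a CG or CR number aside. Gut genes were at 1.29 in WT 1, 0.51 in WT 2 and -2.50 in WT 3, salivary gland genes at -1.16, 0.50 and 0.30, fat body genes at -0.16, 1.00 and -0.56, and Polycomb complex genes at about 0 in all.

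Defence genes varied gene by gene. Of 15 antimicrobial and immune genes asked 7 were variable, against 3 without WT 2. The antimicrobial peptide genes Dpt, DptB and Mtk were highest in WT 2, at 1.54, 51.4 and 1.596, 1.64, 17.9 and 1.33 and 1.63, 12.7 and 0.721, as was the stress peptide TotA at 20.8, 68.6 and 10.6. The cecropin genes CecA1 and CecA2 were highest in WT 3, at 3.76, 6.73 and 15.4 and 0.692, 3.73 and 14.1. The regulators Rel and dl had ranges under 1, at 19.3, 22.9 and 28.9 and 16.6, 16.7 and 17.4. In blood cells 3 of 16 genes were variable: PPO1, a prophenoloxidase, at 42.5, 31.2 and 69.7, Hml, hemolectin, at 7.42, 4.47 and 11.9, both highest in WT 3, and NimC2, a Nimrod family gene, highest in WT 2 at 4.61, 17.2 and 2.501.

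Glial, disc and Polycomb genes had close sums in the 3 libraries, while neuronal and neuropeptide genes differed more. Of 22 neuronal genes asked 1 was variable, close to the 3.97% of all genes, and none was stable, where 31.3% of all were. Their median range was 0.28, against 0.15 over all genes asked. The variable one was Ddc, the dopa decarboxylase of neurons and cuticle, at 15.96, 12.5 and 6.47, and none was without WT 1 or without WT 3. The summed neuronal level was 539.6, 484 and 588 FPKM, lowest in WT 2, with a median difference of -0.14 there. The neuropeptide sum was lowest in WT 2 too, at 585, 442 and 641. Of 26 neuropeptide genes asked none was stable, the median range was 0.34, and 2 were variable: Nplp2, low in WT 2 at 98.4, 20.7 and 130.2, and Ilp5, high in WT 3 at 12.8, 14.7 and 27.02. Pdf, a clock neuropeptide, was also lowest in WT 2 at 27.2, 13.1 and 24.1, with a range just under 1. The summed level of glia was between 944 and 973, that of disc transcription factors between 1122 and 1205, and that of Polycomb complexes between 644 and 661 FPKM.

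**Figure D5:**
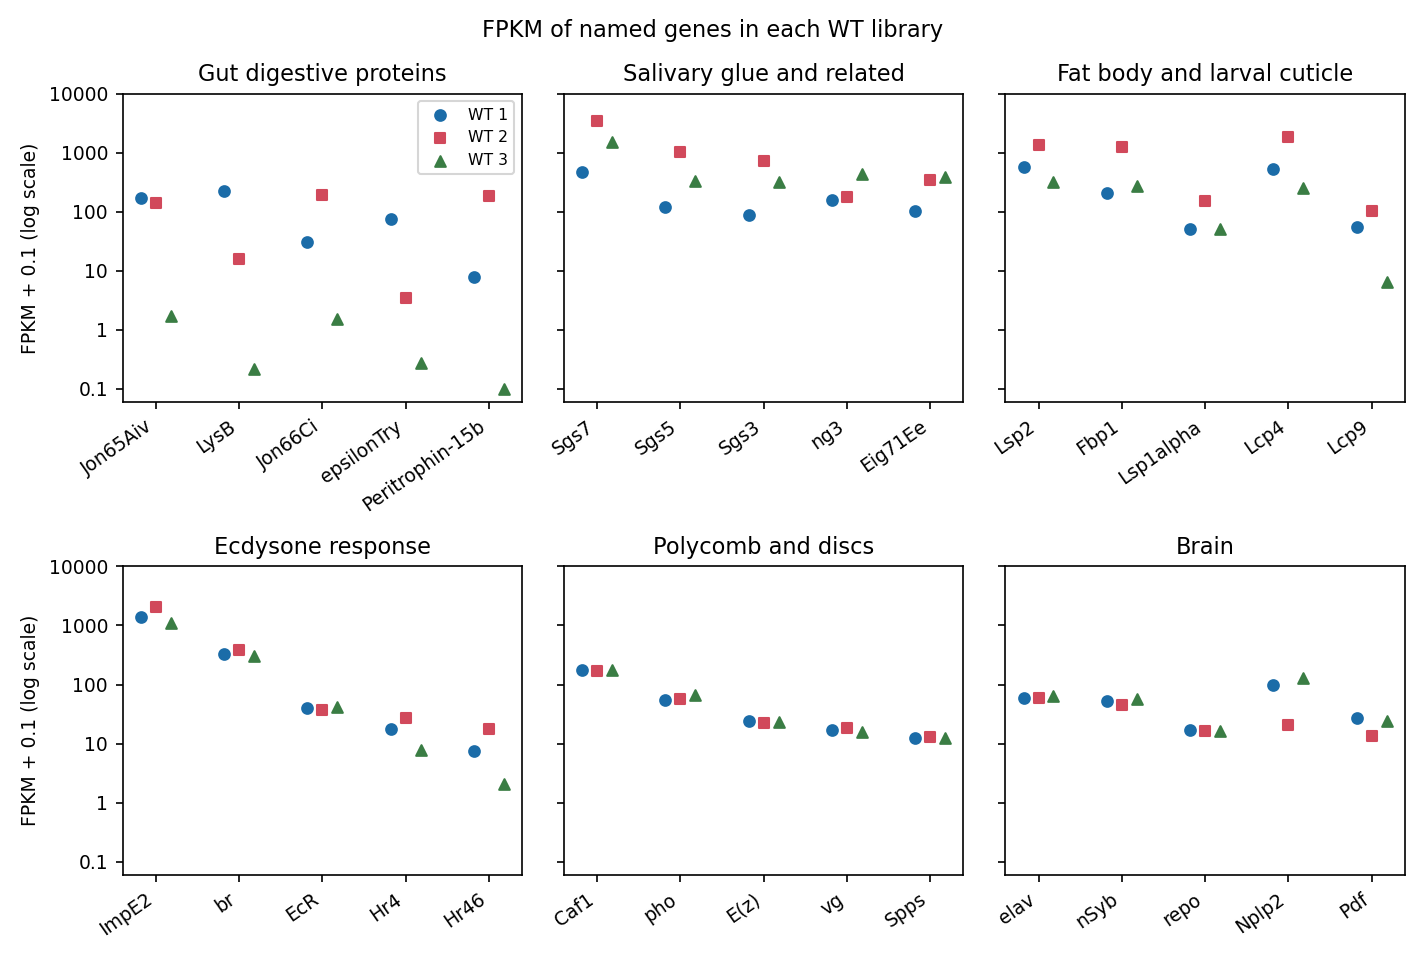
FPKM plus 0.1 on a log axis in each WT library for 30 named genes in 6 groups; circles are WT 1, squares WT 2 and triangles WT 3. Gut genes are lowest in WT 3 (LysB at 220.0 in WT 1 and 0.118 in WT 3), most glue and fat body genes are highest in WT 2, and the Polycomb and disc genes shown differ less.

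The genes that varied in the wild type also tended to vary inside the mutant groups, whose libraries did not choose them. Of the 313 variable genes 166, or 53.0%, had a log2 range of 1 or more between the 4 Spps mutant libraries, where 3.05% of the 7894 genes did. Between the 3 pho mutant libraries the count was 222, or 70.9%, where 3.72% of all did. All 3 groups shared 138 genes, and 63 were variable in the wild type alone. The range of the Spps mutants is over 4 libraries and that of the other groups over 3. More libraries give a wider range by construction, so the groups are not on equal terms. The summed level of the gut list ran from 38.5 to 539.6 FPKM between pho mutant libraries, but only from 99.9 to 141 between Spps mutant libraries. The glue proteins ran from 292 to 3079 between Spps mutant libraries and from 134 to 1771 between pho mutant libraries.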

How the data were processed

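Poly(A) RNA of 3 WT libraries was sequenced as read pairs with a kit that keeps strand, per the labels' protocols, which speak of more pooled libraries than the 10 RNA libraries analysed here. The authors deposited a table of normalized FPKM, 1 value for each gene and library. The submitters' processing notes name TopHat2 2.1.1, Cufflinks, Cuffnorm and HTSeq among their tools, besides others for ChIP-Seq, and the builds dm3 and BDGP5. Which of these made the values, from which annotation release and with which strand setting, is not given in the sources used here, so overlapping genes and near-identical copies are uncertain. FPKM is not a count, so depth is unknown and no counting interval is given; relative depth came from the most frequent ratio to WT 1 among genes under 0.3 FPKM in both libraries. ChIP-Seq samples were not used.

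Levels are means over the 3 libraries, with the SD. Ranges were computed from log2(FPKM + 1), where differences between low values shrink, and were asked at a mean of 5 FPKM or more. No significance test was made, since the 3 libraries are 1 group. A library stands apart where its gap to the next takes 75% or more of the range, a definition chosen after seeing the data. Of the symbols, 16299 matched RefSeq's Release 6 table, used only for names, gene class and gene order, because its build differs. Named genes are the 25 highest, up to 6 top and 3 lowest members of a list, 20 of the widest range, up to 5 with 1 library apart in each direction, the 5 highest stable genes, pho, Spps, cg and the Hox genes, apart from a gene that is not reported here; other genes named as examples were chosen with their values known. The members, lists and families were chosen with earlier results of these data known. Alternatives were other thresholds, pseudocounts, filters and scalings, and leaving out each library. Python 3.11.15, numpy 2.4.6 and pandas 2.3.3 were used.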

Additional observations from a re-analysis of the deposited data

How the results depend on the processing

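The count of genes at 1 FPKM or more was steady, at 9552, and between 9139 and 9551 under the other settings at that threshold. Thresholds of 3 and 0.3 FPKM gave 8473 and 10654 genes. Genes listed at 0 in every library were 2330, and between 2530 and 2955 with 1 library left out. Fewer libraries give more such genes by construction. The count of variable genes, 313, depended on the filter, at 528 with a mean of 1 FPKM, 131 with a mean of 20 and 617 with no filter. Leaving out WT 2 gave 162 and leaving out WT 3 gave 182, so the count ran from 162 to 255 with 1 library left out; fewer libraries give a narrower range by construction. Stable genes, 2473, became 6958 with no filter, since genes near 0 then enter, and ran from 3663 to 5010 with 1 library left out. Pseudocounts of 0.1 and 5 gave 329 and 245 variable genes, scaling to a common sum or by median of ratios 309 and 312, and leaving out short RNA genes, an alternative added after seeing the data, 287. The 15 library differences of lists that were 0.5 log2 units or more kept their sign under each scaling and pseudocount. Counts of variable genes per list were also taken without each library, another alternative chosen after seeing the data. Among 240 recomputed list medians 17 moved by more than the SD over libraries. Promoter motifs by level, planned at the start, were not run because no promoter sequence was at hand. No paired analysis was possible because the 3 libraries are 1 group and no test was made. Depth can limit zeros and the lowest values. WT 3, the shallowest library, had 3881 genes at 0. WT 2 had 3070 and WT 1 had 3392, although WT 2 was at 99.2% of the depth of WT 1. The part of depth in the zeros was not tested.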

Other observations

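Noncoding genes were mostly low, in libraries selected for poly(A) tails. Of 1660 long noncoding RNA genes 170 had a mean of 1 FPKM or more, or 10.2%, against 8981 of 13671 protein-coding genes, or 65.7%, and 170 of 357 antisense RNA genes, or 47.6%. CR34335 was the highest long noncoding RNA at 1469.9, 1082 and 1131 FPKM. The host genes of small nucleolar RNAs Uhg2 and Uhg4 were at 92.3, 82.3 and 83.1 and 85.1, 80.5 and 77.4, and the heat shock RNA Hsromega at 79.8, 75.5 and 66.5. Of 233 microRNA genes 226 were listed at 0.

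Short RNA genes jumped between 0 and high values. Of 36 small nucleolar RNA genes asked 18 were variable, against 8 without WT 2 and 12 without WT 3. A gene listed at 0 in some libraries passed the mean of 5 FPKM only through the others, so its wide range follows from the filter. The widest range of all was that of mir-2283, a microRNA gene, at 0, 0 and 1036 FPKM, followed by snoRNA:Me28S-G3113a, which guides ribosomal RNA methylation, at 0, 683 and 0. Other such genes were listed at 0 in WT 1 and WT 3 and high in WT 2, snoRNA:U14:30Eb at 0, 273 and 0 and snoRNA:MeU6-A47 at 0, 91.4 and 0. The opposite pattern, high in WT 1 only, was seen for snoRNA:Me28S-G3253 at 96.3, 0 and 0. FPKM divides by a short length here, and its part in these jumps was not tested. The 5.8S ribosomal RNA gene 5.8SrRNA:CR40454, whose product has no poly(A) tail, was steadier at 3507, 3199.8 and 2833.

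Among the 313 variable genes, WT 2 alone was high in 58, WT 3 alone low in 24 and alone high in 22, WT 1 alone low in 16 and alone high in 7, and WT 2 alone low in 6. Several of these genes have no named function in the annotation. CG43182 was high in WT 3 at 27.4, 27.2 and 213 FPKM, CG7567 high in WT 2 at 0.03699, 57.01 and 0.124 and CG7465 high in WT 1 at 60.2, 0.636 and 0.429. The gene CG7587, named Sgs5bis in Release 6 after the glue gene Sgs5, was low in WT 1 at 15.9, 110.0 and 161. Low in WT 2 were CG33333 at 234, 45.7 and 230.1, CG16884, now Vajk3, at 35.9, 12.1 and 31.3 and CG16885, now Vajk2, at 49.4, 18.5 and 39.97. Of genes known only by number, CG12310 had one of the highest levels and was highest in WT 3 at 391, 752 and 1574, while CG34166 was highest in WT 2 at 589.5, 1748 and 405.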
